A study of Mus musculus with 12 samples.

Results

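The genes described here are Ppara, which encodes the fatty acid receptor PPAR alpha, and 8 genes of the fatty acid oxidation enzymes that the receptor is known to control: Cpt1a, Cpt2, Acadm, Acadvl, Hadha, Acaa2, Acaa1a and Ehhadh. They were chosen by name, from Ensembl identifiers matched to symbols. No cutoff on their values was used, but earlier results of these data were known. All 9 had a row in both tables, out of 27742 genes in the table of AML12 and 29092 in that of iWAT (32579 in either). The question was whether diethyl phthalate (DEP), a phthalate ester, was accompanied by the rise in these transcripts that peroxisome proliferators cause in rodent liver.

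The series has 12 RNA-seq libraries, 6 from each of 2 mouse cell lines. The submitters call AML12 a line of hepatocytes and iWAT a line of white adipocytes. Confluent cells of either line received 50 µM DEP for 48 h (3 libraries) or served as DMSO controls (3 libraries). The groups rest on the titles, since the treatment labels give the culture medium with or without DEP and do not mention DMSO. Both are cultured lines, so no liver or fat tissue was measured. The labels do not say that the replicates were separate cultures. Where they share a culture, p-values reflect only how these libraries spread, which may be technical. Levels are in FPKM, a unit in which the fragments of a gene are divided by its length and by the library's total, so that levels of different genes can be set side by side. Library totals recovered from the FPKM ran from 42845105 to 54585090 reads, and were larger with DEP in AML12 and smaller with DEP in iWAT. In AML12 controls the hepatocyte markers summed to 520 to 530 FPKM over 12 genes and rose to 585 to 598 FPKM with DEP. Of the 7 tested, 5 were called higher and 1 lower, beside 23.9% and 15.3% of all genes tested in AML12. The simple epithelial markers, mainly keratins, were far more abundant there, at 3786 to 3815 FPKM in controls and 4276 to 4304 FPKM with DEP. In iWAT some transcripts of mature fat cells were near 0, with 4 reads of Adipoq and 2 of Plin1 over the 3 control libraries and no Lep row. Others of the 7 mature fat cell markers were present, and the 7 summed to 19.6 to 20.4 FPKM in iWAT controls and 16.5 to 17.5 FPKM with DEP. The 3 tested there were Fabp4, Lpl and Pparg, of which 1, Lpl, was called lower. The mesenchymal markers there summed to 251 to 259 FPKM in controls and 192 to 201 FPKM with DEP, with 5 of 6 called lower. Of all genes tested in iWAT, 4.03% were called higher and 4.52% lower. The part of these marker shifts in the results below was not tested, and in bulk RNA fewer cells of a type cannot be told apart from less RNA per cell.

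PPAR alpha is a nuclear receptor that binds DNA together with a retinoid X receptor and raises transcription of lipid-burning genes when fatty acids or drugs such as fibrates bind it. Peroxisome proliferators, which include some phthalate metabolites, act through it in rodent liver and raise enzymes of both oxidation systems. In mitochondria, CPT1A and CPT2 pass long-chain fatty acids inward as carnitine esters, acyl-CoA dehydrogenases start each round of beta-oxidation, the trifunctional protein carries it on and a thiolase cuts off acetyl-CoA. Peroxisomes run a parallel route for very long chains, in which the bifunctional enzyme EHHADH and the thiolase ACAA1 take part.

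Promoter sequences from RefSeq (GRCm38.p6, 250 bases before to 50 after the gene start) were found for 8 of the 9 genes. They are shown for genes on which the results turn: Acaa1a and Acadm, which were lower with DEP in both lines, Cpt1a, which was not called in either, and Hadha, which shares its promoter region with Hadhb, the gene of its partner subunit. The coordinates of these windows belong to that build, while the expression files were made on GRCm39. In Cpt1a (chr19:3323051-3323350, plus strand) and Acadm (chr3:153944594-153944893, minus strand) the capitals mark the hexamer AGGTCA that PPAR alpha and related receptors bind, or its reverse complement TGACCT. In Hadha (chr5:30154931-30155230, minus strand) they mark the 228 bases shared with the window of Hadhb, which lies on the plus strand with its start 273 bases away. The Acaa1a window (chr9:119341044-119341343, plus strand) has no hexamer and no capitals.
Acaa1a: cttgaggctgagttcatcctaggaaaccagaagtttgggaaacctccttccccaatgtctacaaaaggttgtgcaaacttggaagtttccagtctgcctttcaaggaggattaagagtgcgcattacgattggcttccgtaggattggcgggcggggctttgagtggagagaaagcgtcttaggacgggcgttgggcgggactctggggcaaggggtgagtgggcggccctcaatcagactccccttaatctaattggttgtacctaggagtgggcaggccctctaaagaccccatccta
Acadm: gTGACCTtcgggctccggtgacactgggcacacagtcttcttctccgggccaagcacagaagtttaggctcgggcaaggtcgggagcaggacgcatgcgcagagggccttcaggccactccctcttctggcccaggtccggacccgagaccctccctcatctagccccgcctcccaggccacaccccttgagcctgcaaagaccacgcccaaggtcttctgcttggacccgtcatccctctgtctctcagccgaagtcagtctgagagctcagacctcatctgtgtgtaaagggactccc
Cpt1a: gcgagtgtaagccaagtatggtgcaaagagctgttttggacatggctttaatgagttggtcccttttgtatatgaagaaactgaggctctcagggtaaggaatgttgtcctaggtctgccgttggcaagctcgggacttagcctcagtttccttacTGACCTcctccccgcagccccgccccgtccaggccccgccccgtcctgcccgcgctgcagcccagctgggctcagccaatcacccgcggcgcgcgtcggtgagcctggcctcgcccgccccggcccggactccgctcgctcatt
Hadha: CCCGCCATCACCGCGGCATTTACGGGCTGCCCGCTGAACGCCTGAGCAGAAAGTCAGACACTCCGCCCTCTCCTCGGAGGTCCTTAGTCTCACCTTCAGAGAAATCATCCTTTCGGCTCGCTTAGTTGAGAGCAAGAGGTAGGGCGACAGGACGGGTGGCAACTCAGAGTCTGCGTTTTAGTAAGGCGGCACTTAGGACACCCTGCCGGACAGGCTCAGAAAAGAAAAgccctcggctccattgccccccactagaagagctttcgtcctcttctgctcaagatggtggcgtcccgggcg
The hexamer was searched on both strands. It was in 3 of the 8 windows, those of Cpt1a, Acadm and Acadvl, and in 16.3% of 32851 mouse promoter windows of the same length. In the orientation of each gene it read TGACCT, starting 94 bases before the Cpt1a start and 249 bases before the Acadm start, and AGGTCA, 87 bases before the Acadvl start. The full response element of the receptor, a direct repeat of AGGTCA with 1 base between the copies, was in none of the 8 windows with up to 2 mismatches over its 12 fixed letters, and in 3.86% of all windows. The closest match among the 8 had 3 mismatches, in Acadm. These are letter matches and not binding sites, and response elements outside these windows were not searched.

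The receptor's own transcript was scarce in both lines. In AML12 the DMSO libraries held Ppara (ENSMUSG00000022383) at 0.310, 0.183 and 0.231 FPKM and the DEP libraries at 0.207, 0.307 and 0.270 FPKM. These levels rest on 55, 32 and 38 reads with DMSO and on 42, 58 and 52 with DEP. The groups overlapped across most of their range. In iWAT they were 0.134, 0.078 and 0.052 FPKM with DMSO and 0.118, 0.082 and 0.043 FPKM with DEP, from 8 to 28 reads per library, and the groups again overlapped. Ppara lay below the filter of 0.5 FPKM in at least 3 libraries, so it was not part of the test over all genes. Without that filter the log2 fold change (DEP over DMSO, on log2(FPKM + 1)) was 0.02 ± 0.05 (SE) in AML12, with a 95% interval of -0.11 to 0.15 and a limma adjusted p of 0.818, and -0.01 ± 0.04 in iWAT (-0.10 to 0.09, adjusted p = 0.937). No change in Ppara was detected in either line, and the pseudocount narrows these intervals for so low a gene.

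None of the 8 tested enzyme genes was called higher with DEP in either line by limma (two-sided, Benjamini-Hochberg adjusted p below 0.05 over all genes tested). None was higher at an unadjusted p below 0.05 either, or by voom on the recovered reads, where the counts of higher calls were 0 and 0. In AML12, 3 of the 8 were called lower: Cpt2, Acadm and Acaa1a. In that line 23.9% of the 12929 genes tested were called higher and 15.3% lower. In iWAT, 3 of the 8 were called lower, Acadm, Acaa2 and Acaa1a, where 4.03% of 13482 genes were called higher and 4.52% lower. Libraries did not overlap, with every DEP value below every DMSO value, for 4 of the 8 in AML12, against 20.4% of all tested genes, and for 3 in iWAT, against 14.0%. The opposite arrangement, every DEP value above, was seen for 0 of the 8 in each line, against 31.6% and 17.2% of all genes. The median log2 fold change of the 8 was -0.07 in AML12 and -0.12 in iWAT, beside 0.03 and 0.01 over all genes tested. The split of calls in AML12 depended on scaling: 3092 genes were higher and 1982 lower as deposited, and 2357 higher and 2545 lower when each library was centred on its median.

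**Figure D1:**
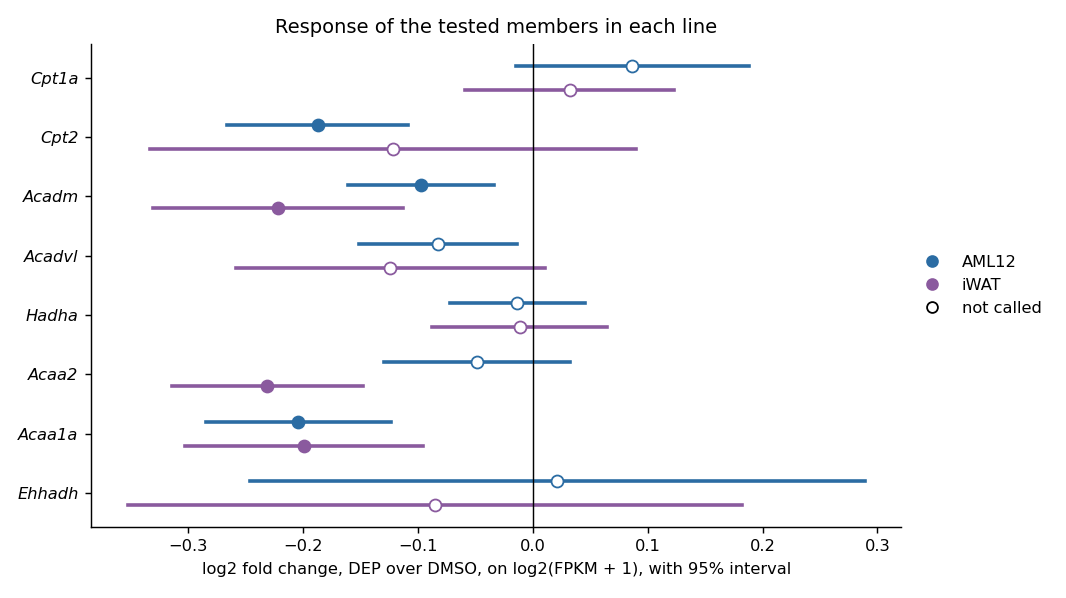
Log2 fold change (DEP over DMSO, on log2(FPKM + 1)) of the 8 tested enzyme genes in AML12 (blue) and iWAT (purple), with bars for the 95% interval from limma and filled points for genes called at an adjusted p below 0.05. All 6 filled points lie below 0, between -0.10 and -0.23, and no interval reaches above 0.29.

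Carnitine transfer comes first in the pathway. Cpt1a (ENSMUSG00000024900), which encodes the rate-limiting outer-membrane enzyme and is a standard PPAR alpha target, stood at 14.1, 13.9 and 13.6 FPKM with DMSO and at 14.8, 13.9 and 15.6 FPKM with DEP. The second DEP library lay inside the control range. The log2 fold change was 0.09 ± 0.04, which was not called (limma adjusted p = 0.154), and its 95% interval of -0.01 to 0.19 allows a rise of at most 1.14-fold. Without that DEP library the change was 0.13 and was called (adjusted p = 0.0411). In iWAT Cpt1a was at 11.7, 11.9 and 11.6 FPKM with DMSO and at 12.3, 12.4 and 11.3 FPKM with DEP. Here the third DEP library was the lowest of the 6, and the change of 0.03 ± 0.04 was not called (adjusted p = 0.663, upper bound 1.09-fold).

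Cpt2 (ENSMUSG00000028607), the inner-membrane carnitine transferase, fell in AML12. Its controls were at 12.99, 13.2 and 13.5 FPKM and its DEP libraries at 11.4, 11.97 and 11.2 FPKM, a mean change of -13.1%. All 3 DEP libraries lay below all 3 controls, with a log2 fold change of -0.19 ± 0.03 and a limma adjusted p of 0.0047. In a joint fit of both lines with 1 shared spread it was not called (adjusted p = 0.0665). In iWAT it was at 6.24, 4.96 and 5.79 FPKM with DMSO and at 5.41, 5.43 and 4.52 FPKM with DEP, groups that overlapped (log2 fold change -0.12 ± 0.09, adjusted p = 0.456). The AML12 fall was not shown to be particular to that line, since the difference between the lines was -0.07 (adjusted p = 0.687).

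The dehydrogenases open each round of oxidation. Acadm (ENSMUSG00000062908), the medium-chain enzyme, was called lower in both lines. In AML12 it was at 22.0, 21.0 and 21.1 FPKM with DMSO and at 19.8, 19.7 and 20.2 FPKM with DEP, groups that did not overlap. The change was -6.84% of the mean (log2 fold change -0.10 ± 0.03, limma adjusted p = 0.0270). In iWAT it was at 7.50, 7.87 and 7.28 FPKM with DMSO and at 6.02, 6.70 and 6.28 FPKM with DEP, again apart, with a mean change of -16.1% (-0.22 ± 0.05, adjusted p = 0.0323). Both calls sat near the threshold. In AML12 the call was lost without the first DMSO library (adjusted p = 0.0745), the first DEP library (0.0660) or the second DEP library (0.0806), and also without the mean-dependent prior (0.0509) and in the joint fit of both lines (0.0616). In iWAT it was lost when any library but the second DEP library was left out, with adjusted p from 0.0650 to 0.0986, and also without a filter on low values (0.0825) and without the mean-dependent prior (0.0543).

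Acadvl (ENSMUSG00000018574), the very-long-chain dehydrogenase of the inner membrane, was at 23.6, 23.5 and 23.5 FPKM in AML12 controls and at 22.8, 22.5 and 21.4 FPKM with DEP. Every DEP library was below every control, yet the change of -0.08 ± 0.03 was not called (limma adjusted p = 0.0616). It was called when libraries were centred on their median (-0.12, adjusted p = 0.0214), divided by their upper quartile (adjusted p = 0.0176), or tested without the first DEP library (adjusted p = 0.0433). In iWAT the first DEP library was inside the control range, with 14.9, 14.8 and 15.3 FPKM under DMSO and 15.1, 12.9 and 13.2 FPKM under DEP. The change there was -0.12 ± 0.06 and was not called (adjusted p = 0.235). Without that first DEP library it was -0.19 and was called (adjusted p = 0.0261).

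Hadha (ENSMUSG00000025745), the alpha subunit of the trifunctional protein, had the log2 fold changes nearest to 0 among the 8 tested genes. AML12 libraries stood at 15.4, 15.0 and 15.5 FPKM with DMSO and at 15.0, 15.0 and 15.4 FPKM with DEP. iWAT libraries stood at 16.9, 17.9 and 17.6 FPKM with DMSO and at 17.4, 17.8 and 16.8 FPKM with DEP. The groups overlapped in both lines, and the 95% intervals of the log2 fold change, -0.07 to 0.05 in AML12 and -0.09 to 0.07 in iWAT, allow a rise of at most 1.03-fold and 1.05-fold on this scale. Hadhb, the beta subunit encoded on the other side of the shared promoter region printed above, went from 7.04 to 7.37 FPKM in AML12 (adjusted p = 0.319) and from 9.45 to 9.56 FPKM in iWAT (adjusted p = 0.83).

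**Figure D2:**
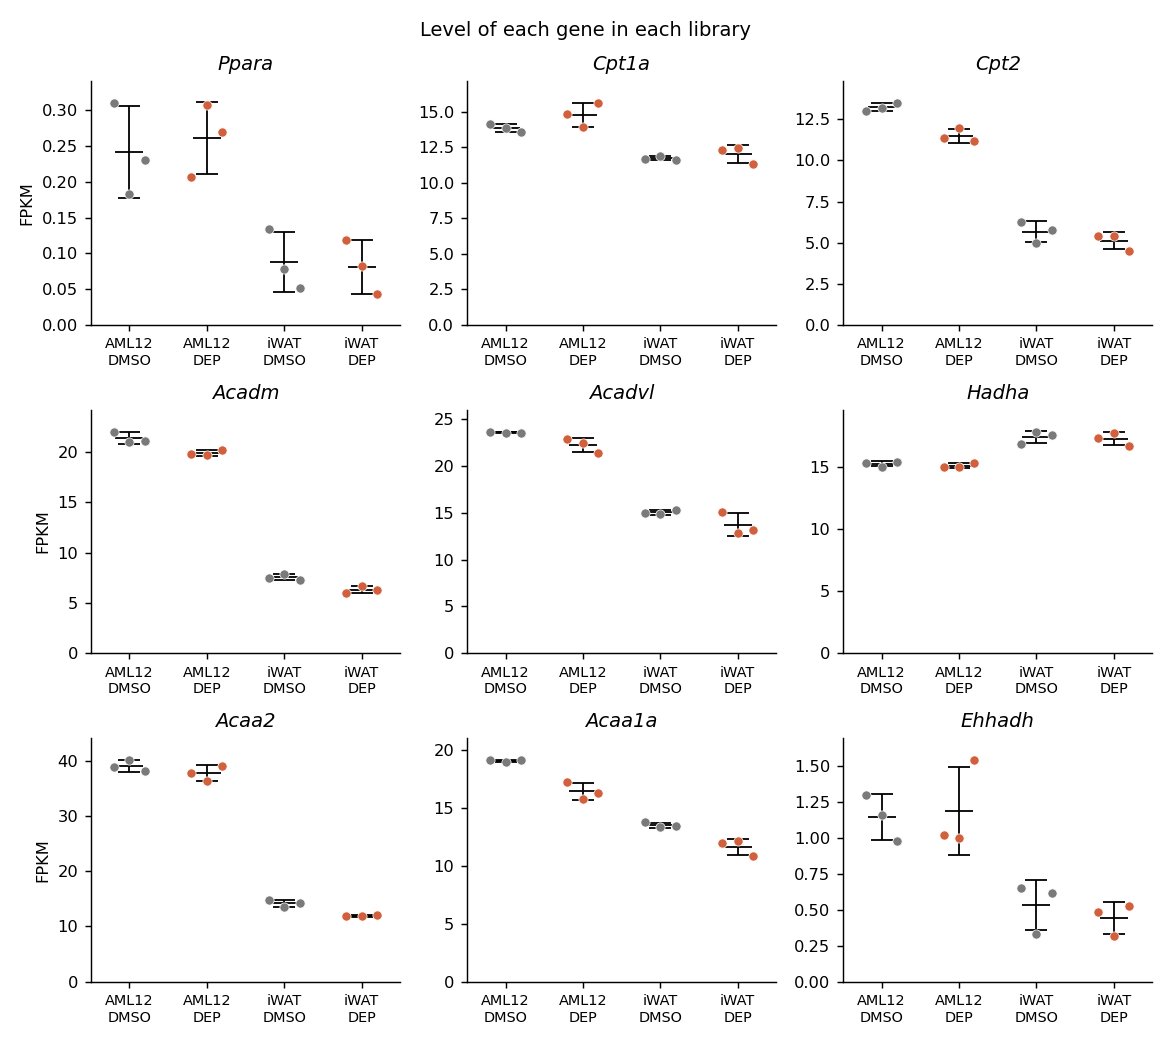
FPKM of each of the 9 genes in each of the 12 libraries, each panel on its own linear axis from 0, with DMSO in grey and DEP in orange; horizontal bars give the mean and whiskers 1 SD of 3 libraries. DEP points lie wholly below the DMSO points for Acadm and Acaa1a in both lines, for Cpt2 and Acadvl in AML12 and for Acaa2 in iWAT.

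The thiolases end the cycle, the mitochondrial form encoded by Acaa2 and the peroxisomal form by Acaa1a. Acaa2 (ENSMUSG00000036880) in AML12 was at 38.9, 40.1 and 38.1 FPKM with DMSO and at 37.8, 36.2 and 39.1 FPKM with DEP, groups that overlapped (log2 fold change -0.05 ± 0.03, limma adjusted p = 0.303). In iWAT it was at 14.9, 13.6 and 14.2 FPKM with DMSO and at 11.9, 11.8 and 12.2 FPKM with DEP. All DEP libraries were below all controls there, a mean change of -15.9% (-0.23 ± 0.04, adjusted p = 0.0115), and the adjusted p stayed between 0.0022 and 0.0482 over the alternatives tried. Acaa2 was the only one of the 8 called for a difference between the lines, by 0.18 ± 0.05 on the log2 scale (AML12 minus iWAT, 95% interval 0.07 to 0.29, adjusted p = 0.0185), in a test that called 29.2% of 14651 genes. That call was lost with median centring (adjusted p = 0.0518) and with upper-quartile scaling (adjusted p = 0.0609). Acadm was next, with a difference of 0.12 ± 0.05 that was not called (adjusted p = 0.101) except without the second iWAT DEP library (adjusted p = 0.0314).

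Acaa1a (ENSMUSG00000036138) fell by nearly the same share in both lines. AML12 controls were at 19.1, 19.0 and 19.1 FPKM and DEP libraries at 17.2, 15.8 and 16.3 FPKM, a mean change of -13.8% (log2 fold change -0.20 ± 0.03, limma adjusted p = 0.00359). The adjusted p there reached at most 0.0152 over the alternatives. iWAT controls were at 13.8, 13.4 and 13.4 FPKM and DEP libraries at 11.9, 12.2 and 10.8 FPKM, also -13.8% (-0.20 ± 0.04, adjusted p = 0.0383). No DEP library reached the control range in either line. The iWAT call was lost when any library but the third DEP library was left out, with adjusted p from 0.0512 to 0.107, and also without a filter (0.0976) and without the mean-dependent prior (0.0702). The close paralog Acaa1b had 20 and 32 reads over the AML12 DMSO and DEP libraries and 11 and 15 in iWAT. How reads shared between the copies were assigned is not known, since the counting tool is not given.

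Ehhadh (ENSMUSG00000022853), the peroxisomal bifunctional enzyme and among the strongest responders to peroxisome proliferators in rodent liver, was low in both lines. AML12 controls were at 1.30, 1.16 and 0.979 FPKM and DEP libraries at 1.02, 1.001 and 1.54 FPKM. The third DEP library was the highest of the 6 and the other DEP libraries lay inside the control range. The log2 fold change was 0.02 ± 0.11, with a 95% interval of -0.25 to 0.29 (adjusted p = 0.899), so on this scale a rise above 1.22-fold lies outside the interval. The added 1 FPKM is about as large as these levels, so in FPKM itself the interval allows a larger rise. iWAT controls were at 0.651, 0.333 and 0.617 FPKM and DEP libraries at 0.484, 0.316 and 0.527 FPKM, from 45 to 106 reads per library. They overlapped (-0.08 ± 0.11, adjusted p = 0.697).

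In controls the 9 transcripts were ordered differently in the lines. By mean FPKM the AML12 order was Acaa2 (39.0), Acadvl (23.6), Acadm (21.4), Acaa1a (19.1), Hadha (15.3), Cpt1a (13.8), Cpt2 (13.2), Ehhadh (1.15) and Ppara (0.241). The ranges of neighbours in that order did not overlap over the 3 libraries. In iWAT controls Hadha led (17.5), followed by Acadvl (15.0), Acaa2 (14.2), Acaa1a (13.5), Cpt1a (11.7), Acadm (7.55), Cpt2 (5.66), Ehhadh (0.534) and Ppara (0.0878). There the ranges of Acadvl and Acaa2, and of Acaa2 and Acaa1a, overlapped. With DEP the AML12 order was kept, but the ranges of Hadha and Cpt1a came to overlap. In iWAT Cpt1a moved above Acaa2 and Acaa1a, though its range overlapped those of both. The mean in AML12 controls was 2.83 times that in iWAT controls for Acadm, 2.74 for Acaa2, 2.33 for Cpt2, 1.18 for Cpt1a and 0.876 for Hadha. The tables were deposited separately per line, so these ratios are set side by side without a test.

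Genes with the most similar profile were sought for Cpt1a and Ehhadh over the 12 libraries, by the root mean square difference of log2(FPKM + 1) centred within each line, among 11399 genes tested in both lines. Nearest to Cpt1a were Bbs9 (0.0260), Rmnd5b (0.0277) and Drap1 (0.0286), where a flat profile gave 0.0551. Nearest to Ehhadh were Znrd1as (0.0753), 1700086O06Rik (0.0817) and Gm49331 (0.0821), where a flat profile gave 0.128. Ppara was too low in both lines for this comparison.

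Other genes known as PPAR alpha targets went both ways in AML12 and, where called, fell in iWAT. Of 34 such genes, 16 were tested in each line. In AML12, 3 were called higher and 6 lower (median -0.10), beside 23.9% and 15.3% of all genes tested. In iWAT 0 were called higher and 3 lower (median -0.03), beside 4.03% and 4.52%. For that 0, 2 genes were higher at an unadjusted p below 0.05 and voom called 1. Ech1, an enoyl-CoA isomerase, fell from 90.9 ± 0.345 to 70.0 ± 0.947 FPKM (SD, n = 3) in AML12 (log2 fold change -0.37, limma adjusted p = 3.19e-05) and from 19.6 ± 0.749 to 17.0 ± 0.502 FPKM in iWAT (-0.19, adjusted p = 0.0223). The iWAT call of Ech1 was lost without the first or the third DMSO library or the second or the third DEP library (adjusted p 0.0584 to 0.0728), without a filter (0.0595) and without the mean-dependent prior (0.0524). Vnn1, a pantetheinase that responds strongly to fibrates in mouse liver, fell from 78.4 ± 2.29 to 60.3 ± 2.14 FPKM in AML12 (-0.37, adjusted p = 0.000288) and had under 0.5 FPKM in iWAT. The AML12 falls also included Acot1, Acot2 and Pex11a, and Ucp2 rose with Angptl4 and Plin2. Acot1, Acot2 and Ucp2 lie outside the rule for naming genes and were named after their values were seen.

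Angptl4 and Plin2, a lipase inhibitor and a lipid droplet coat protein, moved in opposite directions in the lines. Angptl4 rose from 5.90 ± 0.283 to 6.61 ± 0.115 FPKM in AML12 (limma adjusted p = 0.0283) and fell from 5.12 ± 0.151 to 3.14 ± 0.291 FPKM in iWAT (adjusted p = 0.00221), a difference between the lines of 0.71 (adjusted p = 3.54e-05). The AML12 rise was not called after median centring (adjusted p = 0.0817) or upper-quartile scaling (0.0677), without a filter (0.0626), or without the first or the second DMSO library (0.0672 and 0.0533) or any single DEP library (0.0526 to 0.0789). Plin2 rose from 50.9 ± 0.855 to 60.6 ± 1.84 FPKM in AML12 (adjusted p = 0.00075) and fell from 57.6 ± 1.78 to 48.7 ± 2.19 FPKM in iWAT (adjusted p = 0.0128), a difference of 0.49 (adjusted p = 4.7e-05). Pdk4 and Fgf21, a pyruvate dehydrogenase kinase and a fasting hormone that the receptor induces, were tested in iWAT alone and were not called, at 3.47 and 3.41 FPKM for Pdk4 (adjusted p = 0.884) and 3.60 and 3.44 FPKM for Fgf21 (adjusted p = 0.756). In AML12 Fgf21 had 0 reads over the DMSO and 2 over the DEP libraries, and Pdk4 has no row in the table used. Cyp4a10 and Cyp4a14, the fatty acid hydroxylases most used as markers of peroxisome proliferation in mice, have no row in either table used and were not analysed here.

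**Figure D3:**
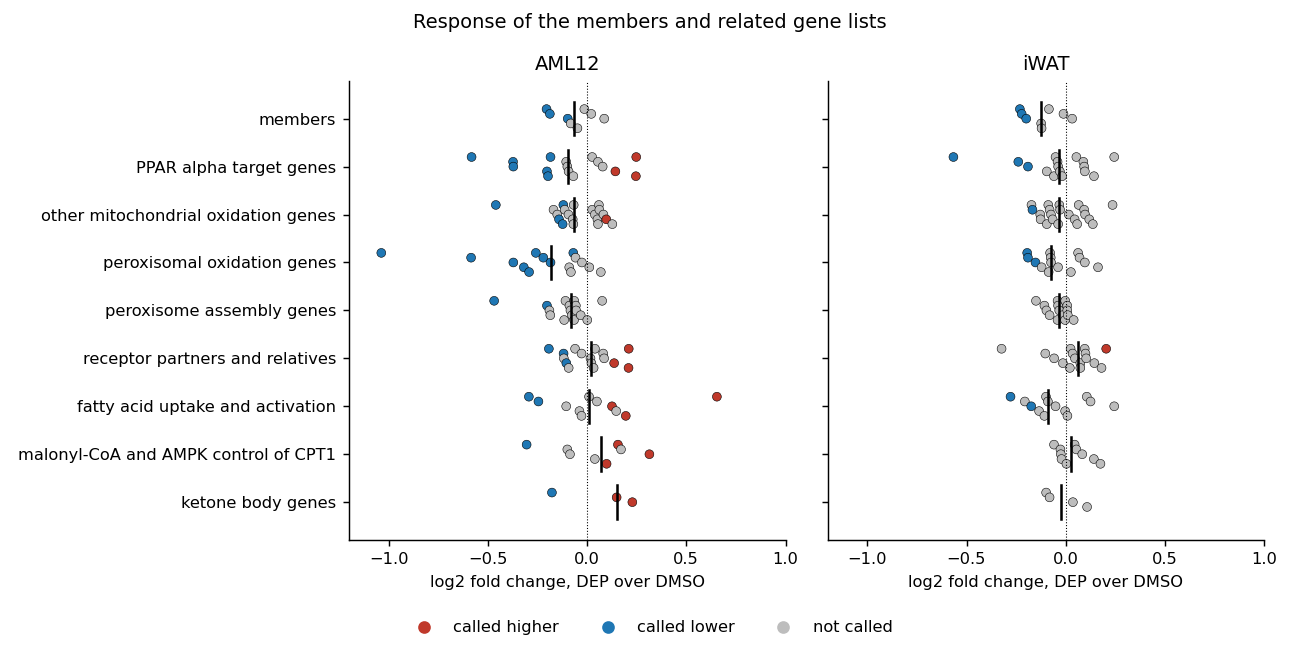
Log2 fold change (DEP over DMSO, on log2(FPKM + 1)) of every tested gene among the 8 enzyme genes (top row) and in 8 related lists, by line; red points were called higher, blue lower and grey not called, and black bars are medians. In AML12 the peroxisomal oxidation genes reach -1.04 and hold 9 blue points and no red point, while iWAT points lie closer to 0.

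Of 15 peroxisomal oxidation genes tested in AML12, 9 were called lower and 0 higher, beside 15.3% and 23.9% of all genes tested, and 6 were not called. The median log2 fold change of the list was -0.18, and no higher call appeared at an unadjusted p below 0.05 or by voom. The count of lower calls lay between 6 and 10 over the alternatives, and was 6 without the second DMSO library. Acox2, the oxidase of branched chains and bile acid precursors, fell from 43.6 ± 1.89 to 20.7 ± 0.641 FPKM (log2 fold change -1.04, limma adjusted p = 1.17e-05). Cat, which encodes the catalase that removes the hydrogen peroxide made by these oxidases, fell from 133 ± 1.51 to 88.2 ± 1.83 FPKM (-0.58, adjusted p = 1.17e-05). Crot, which makes carnitine esters for export from the peroxisome, fell from 31.9 ± 0.765 to 25.4 ± 0.385 FPKM (-0.32, adjusted p = 0.00019). The 4 leukocyte markers in AML12 had a sum of 10.5 to 11.96 FPKM in the DMSO libraries and 4.19 to 4.56 FPKM in the DEP libraries. Nearly all of it was Cd68, a lysosomal protein gene and the only one of the 4 above the filter. In iWAT, where only Cd68 had a row, it was at 10.5 to 11.7 FPKM with DMSO and 13.1 to 13.7 FPKM with DEP, and was called higher. The part of these markers in the AML12 falls was not tested.

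In iWAT 3 of 14 peroxisomal oxidation genes were called lower, Ech1, Crot and Abcd3, and 0 higher, with a median of -0.07. Of all genes tested there, 4.52% were called lower and 4.03% higher. At an unadjusted p below 0.05, 2 of the 14 were higher, and voom called 1. Abcd3, a transporter of the peroxisomal membrane, was named after its values were seen. Of the 3 calls 0 were left without the first or the third DMSO library or the second or the third DEP library, and 1 without the first DEP library. The responses of Cat in the lines differed by -0.51 (limma adjusted p = 8.92e-06), and those of Crot, lower in both, by -0.12 (adjusted p = 0.029). The Crot difference was not called without the second AML12 DMSO, first AML12 DEP, second iWAT DMSO or second or the third iWAT DEP library (adjusted p 0.0572 to 0.0667), with a pseudocount of 0.1 FPKM (0.0752) or by voom (0.155). Acox2 had 15 and 28 reads over the iWAT DMSO and DEP libraries.

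Among 16 genes of peroxisome assembly, Pex6 and Pex11a were called lower in AML12 and 0 higher (median -0.08). The share of lower calls was near the 15.3% of all genes tested there, of which 23.9% were called higher. At an unadjusted p below 0.05, 0 of the list were higher, and voom called 0 higher. Pex6, an ATPase that recycles the import receptor, fell from 8.42 ± 0.700 to 5.80 ± 0.178 FPKM (limma adjusted p = 0.00109), and Pex11a, which drives peroxisome division and is induced by proliferators, from 2.98 ± 0.131 to 2.46 ± 0.226 FPKM (adjusted p = 0.0372). The Pex11a call was lost without any single library other than the first DEP library (adjusted p 0.0589 to 0.106) and without a filter (0.109). Median centring gave 4 lower calls in this list. In iWAT 0 of 15 were called in either direction (median -0.03), where 4.03% of all genes tested were called higher and 4.52% lower. At an unadjusted p below 0.05, 2 were lower, and voom called 1 lower. Pex11a there was at 5.06 and 4.89 FPKM.

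Of the rest of the mitochondrial oxidation set in AML12, 1 of 20 was called higher and 4 lower (median -0.07), beside 23.9% and 15.3% of all genes tested. In iWAT 0 of 21 were called higher and 1 lower (median -0.03), beside 4.03% and 4.52% of all genes tested. At an unadjusted p below 0.05, 3 were higher there, and voom called 2. In AML12 the falls included Acad10, an acyl-CoA dehydrogenase family member, from 2.58 ± 0.0930 to 1.60 ± 0.129 FPKM (limma adjusted p = 0.00103), Hadh, the short-chain hydroxyacyl dehydrogenase, from 29.9 ± 0.523 to 27.0 ± 0.629 FPKM (adjusted p = 0.00554), and Echs1, the short-chain hydratase, from 19.0 ± 0.341 to 17.5 ± 0.485 FPKM (adjusted p = 0.0161). The Echs1 call was lost without the third DMSO library or the second or the third DEP library (adjusted p 0.0505 to 0.0537). The 1 rise, of Acads, which was named after its values were seen, was not called after median centring or upper-quartile scaling. In iWAT Acadl, the long-chain dehydrogenase, fell from 47.8 ± 1.52 to 42.4 ± 1.42 FPKM (adjusted p = 0.0275), and its response differed from that in AML12 by 0.23 (adjusted p = 0.00392). The Acadl call was lost without the second or the third DMSO library or the first or the second DEP library (adjusted p 0.0736 to 0.086), without a filter (0.0742) and without the mean-dependent prior (0.0663). Of the other CPT1 genes, Cpt1b had 21 and 38 reads over the AML12 DMSO and DEP libraries and 98 and 106 in iWAT, and Cpt1c, the neuronal form, went from 9.89 ± 0.148 to 11.0 ± 0.460 FPKM in iWAT (adjusted p = 0.0604), and was called by voom (adjusted p = 0.0158) and in the joint fit (0.034).

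**Figure D4:**
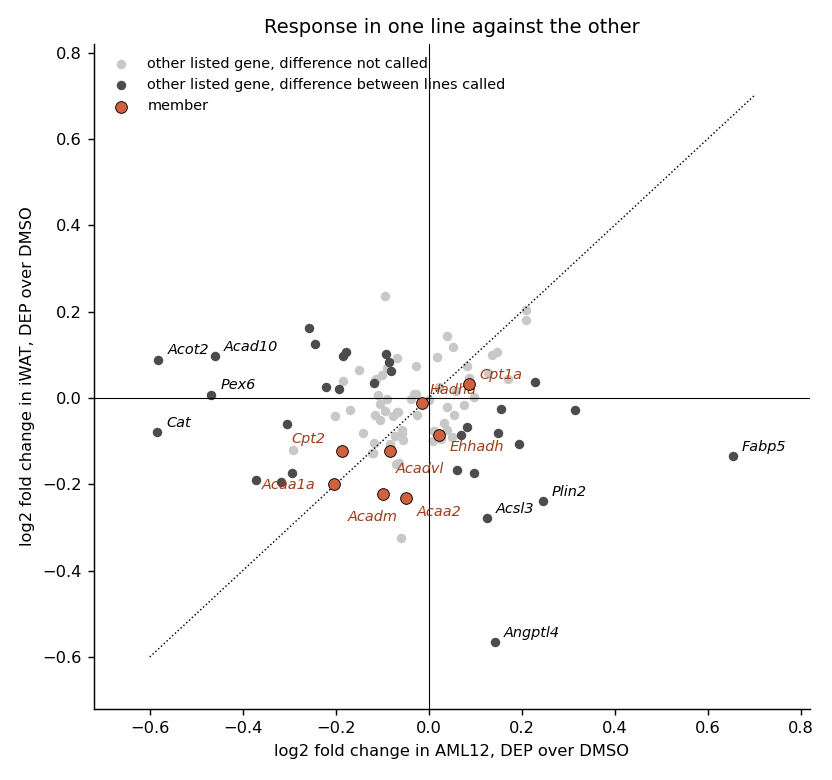
Log2 fold change (DEP over DMSO, on log2(FPKM + 1)) in AML12 (x axis) against iWAT (y axis) for the listed genes tested in both lines, each with the fit of its own line, with members in orange, other listed genes in dark grey where the difference between the lines was called and light grey where not, and a dotted line of equal change. Of 8 members, all but Acaa2 were not called for a difference, while Angptl4, Plin2 and Acsl3 lie below and to the right of the centre.

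Rxra, which encodes the receptor's obligate partner, was not called in either line, at 12.7 and 12.9 FPKM in AML12 and at 14.6 and 14.8 FPKM in iWAT with DMSO and DEP (limma adjusted p = 0.603 and 0.762). The related receptors Ppard and Pparg were not called in either line. Ppard stood at 4.58 and 4.47 FPKM in AML12 and at 7.68 and 8.13 FPKM in iWAT. The adipogenic receptor gene Pparg was at 0.578 and 0.615 FPKM in AML12 and at 9.84 and 9.40 FPKM in iWAT, more than the level of Ppara in each line. Ppargc1a, a coactivator of oxidation genes, went from 1.06 ± 0.112 to 0.642 ± 0.0922 FPKM in iWAT, with no overlap and no call (-0.32 ± 0.08, adjusted p = 0.0507), and was called after median centring (adjusted p = 0.0492), without the mean-dependent prior (0.0396) and in the joint fit (0.0135). By voom the change of Ppargc1a was -0.72 on the log2 scale of counts, without the added 1 FPKM, and was called (adjusted p = 0.00138). In the whole list 3 of 16 were called higher and 3 lower in AML12 (median 0.02), shares near the 23.9% and 15.3% of all genes tested. In iWAT 1 was higher and 0 lower (median 0.06), beside 4.03% and 4.52% of all genes tested. At an unadjusted p below 0.05, 6 were higher and 1 lower there, and voom called 5 higher and 1 lower. Crebbp, a histone acetyltransferase, rose in both lines (adjusted p = 0.0152 and 0.015), while the corepressor Ncor1 (24.7 to 21.5 FPKM, adjusted p = 0.00148) and the oxidative regulator Esrra (28.7 to 26.4 FPKM, adjusted p = 0.00827) fell in AML12, where Lpin1, a coactivator and lipid phosphatase, rose from 2.01 to 2.48 FPKM (adjusted p = 0.0201). The Crebbp call was lost without the third AML12 DEP library (adjusted p = 0.0513), without a filter in AML12 (0.0609) and without any single iWAT DMSO library (0.0501 to 0.0593). The Lpin1 call was lost without the second or the third DMSO library or the first or the second DEP library (0.0565 to 0.067) and without a filter (0.0725).

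Among genes that supply fatty acids to the pathway, 11 were tested in AML12. Of these 3 were called higher and 2 lower (median 0.01), shares near the 23.9% and 15.3% of all genes tested. Of 13 in iWAT 0 were higher and 2 lower (median -0.09), beside 4.03% and 4.52% of all genes tested. At an unadjusted p below 0.05, 2 were higher there, and voom called 1. Fabp5, a cytosolic fatty acid carrier, rose from 18.4 ± 0.971 to 29.5 ± 1.42 FPKM in AML12 (log2 fold change 0.65, limma adjusted p = 0.000139). The acyl-CoA synthetase gene Acsl4 fell in both lines (adjusted p = 0.000217 and 0.0191), while Acsl3 rose in AML12 from 50.7 to 55.4 FPKM (adjusted p = 0.00258) and fell in iWAT from 13.5 to 11.0 FPKM (adjusted p = 0.017), and Dbi, the acyl-CoA binding protein, rose in AML12 from 40.4 to 46.4 FPKM (adjusted p = 0.00492). In iWAT the Acsl4 call was lost without the first or the second DMSO library or the first or the third DEP library (0.0534 to 0.0656) and without the mean-dependent prior (0.0504), and the Acsl3 call without the second or the third DMSO library or the third DEP library (0.0547 to 0.0628) and without a filter (0.0522).

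Malonyl-CoA inhibits CPT1, and AMPK restrains its synthesis. In AML12, 3 of 8 genes of this list were called higher and 1 lower (median 0.07), beside 23.9% and 15.3% of all genes tested. Acaca, the carboxylase that makes malonyl-CoA, rose from 7.20 ± 0.256 to 8.14 ± 0.208 FPKM (limma adjusted p = 0.0143), the AMPK subunit genes Prkag1 (6.07 to 7.80 FPKM, adjusted p = 0.00181) and Prkaa1 (27.2 to 29.2 FPKM, adjusted p = 0.0153) rose, and Prkab2 fell from 2.51 to 1.84 FPKM (adjusted p = 0.00573). The Prkaa1 rise was not called after median centring (adjusted p = 0.0766), after upper-quartile scaling (0.0792), in the joint fit (0.0725), or without the first DMSO library (0.0514) or the third DEP library (0.0523). In iWAT 0 of 10 were called in either direction (median 0.02), where 4.03% of all genes tested were called higher and 4.52% lower. At an unadjusted p below 0.05, 2 were higher, and voom called 1. Acaca there was at 5.30 and 5.19 FPKM. Acacb, the mitochondrial carboxylase, was at 1.11 and 1.33 FPKM in iWAT (adjusted p = 0.172, called by voom at 0.0353) and below the filter in AML12.

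Among ketone body genes in AML12, 3 were tested, of which 2 were called higher and 1 lower (median 0.15). Of all genes tested there, 23.9% were called higher and 15.3% lower. Oxct1 and Acat1, used in ketone breakdown, rose from 39.5 ± 0.688 to 46.4 ± 1.05 FPKM (limma adjusted p = 0.000674) and from 22.2 ± 0.615 to 24.7 ± 0.800 FPKM (adjusted p = 0.011). In iWAT 0 of 4 were called (median -0.02), where 4.03% of all genes tested were called higher and 4.52% lower. At an unadjusted p below 0.05, 1 was lower, and voom called 0.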

How the data were processed

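Total RNA (mirVana kit, checked for integrity) went into stranded total RNA libraries, per the labels' protocols. The submitters' processing notes name Trimmomatic, HISAT2 and the build GRCm39, while the versions, the counting tool and the annotation are not given in the sources used here. The deposited values were FPKM per Ensembl gene, in 1 table per line with a column per library, and no other columns were left over. Symbols came from GENCODE M21 (another build, so no gene coordinates were used), which matched 95.1% of AML12 and 94.9% of iWAT identifiers.

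FPKM divided by what 1 read is worth gave whole reads, within 0.001, for 89.4% of genes in both tables using annotated exon length, and 99.98% to 99.99% of all reads after a search over lengths. Genes at 2 reads outnumbered those at 1 read, so reads may have been counted in pairs, and read numbers cover counting error only.

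DEP was compared with DMSO within each line by limma on log2(FPKM + 1) with a mean-dependent prior, over genes that reached 0.5 FPKM in 3 or more libraries, two-sided, with Benjamini-Hochberg adjustment over all genes tested and calls at an adjusted p below 0.05. The added 1 FPKM shrinks the fold changes of low genes such as Ppara and Ehhadh. A line-by-treatment interaction in limma tested whether the lines differed, over the 12 libraries together. The procedure was tested on simulated data. Replicate libraries differed by more than the counting noise of single reads, with a chi-square per degree of freedom of 5.06 to 11.0 over 12 pairs. None was therefore treated as a resequenced copy of another. Counting in pairs would raise this value, and it cannot tell whether the replicates were separate cultures.

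The 9 genes and the 8 related lists were chosen with earlier results of these data known, so they give no independent support. Named genes were all 9, up to 4 called genes with the smallest p from each list, a fixed set of targets and partners, and the 3 nearest profiles. Some genes of these lists are counted but not reported here by name. A list is described by its counts and median, without a set test. Alternatives were pseudocounts of 0.1 and 0.5 FPKM, other filters and scalings, a threshold of 0.01, no trend, a replicate block, a joint fit, voom on the recovered reads, and leaving out each library. The software was limma 3.58.1 in R 4.3.3, pandas 2.3.3 and numpy 2.4.6 under Python 3.11.15, and matplotlib 3.10.9 for the plots.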

Additional observations from a re-analysis of the deposited data

Results flagged for a closer look

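Among the genes named by the rule for naming genes and reported here, 21 responded differently in the 2 lines by the limma interaction test (log2 fold change in AML12 minus that in iWAT, adjusted p below 0.05), a test that called 29.2% of all 14651 genes. The genes named from the lists were picked for a call in a line, so the 21 cannot be set against that 29.2%. Of all the listed genes other than members tested in both lines, 31 were called for a difference and 60 were not. Of the members, 1 was called and 7 were not. Acaa2 was the only one of the 9 genes among the 21, at 0.18. The largest positive difference was that of Fabp5, at 0.79, followed by Angptl4 at 0.71, Plin2 at 0.49, Acsl3 at 0.40, Prkag1 at 0.34 and Dbi at 0.30. Smaller positive differences were those of Acadl at 0.23, Acat1 at 0.23, Oxct1 at 0.19 and Acaca at 0.18. The largest negative difference was that of Acox2, at -1.07, where iWAT had only 15 and 28 reads over the DMSO and DEP libraries. Negative differences of other oxidation and peroxisome genes were -0.56 for Acad10, -0.51 for Cat, -0.48 for Pex6, -0.18 for Ech1 and -0.12 for Crot. For the remaining genes they were -0.25 for Prkab2, -0.21 for Ncor1, -0.15 for Esrra and -0.12 for Acsl4. The Acsl4 difference (adjusted p = 0.0417) was not called in 8 of the 12 fits that left out 1 library (adjusted p 0.0665 to 0.0926), with a pseudocount of 0.1 FPKM (0.0525), without a filter (0.0597) or without the mean-dependent prior (0.0663). Acot2, Acads and Ucp2, which were named after their values were seen, were also called, with differences of -0.67, 0.27 and 0.26.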

How the results depend on the processing

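Acaa1a in AML12 and Acaa2 in iWAT stayed called lower in every alternative at an adjusted p below 0.05. At a threshold of 0.01 the calls over all genes were 3099 of 5074 in AML12, 357 of 1152 in iWAT and 2646 of 4283 for the difference between the lines, and 0 of the 3 iWAT members and 0 for the difference were left. The iWAT count was 664 without a filter on low values, 673 without the trend and 1995 by voom. Members called lower fell from 3 to 1 in AML12 in the joint fit, and from 3 to 1 in iWAT without a filter and without the trend. Members called for the difference fell from 1 to 0 with median centring and with upper-quartile scaling. The cause was not tested.

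Same-numbered replicates did not deviate together (correlations of -0.056 to -0.0050 in AML12 and -0.025 to 0.029 in iWAT). Whether they shared a batch is not given in the labels and cannot be told from these correlations. With the replicate block 4231 genes were called in AML12, 503 in iWAT and 3545 for the difference, and members called lower were 2 in AML12 and 1 in iWAT, with 0 for the difference. The member calls lost under the block were those of Acadm in both lines, of Acaa1a in iWAT and of Acaa2 for the difference. Among the other genes named by the rule, those of Angptl4, Echs1 and Pex11a in AML12 were lost (limma adjusted p 0.0509 to 0.0696). So were those of Plin2, Crot and Crebbp in iWAT (0.0506 to 0.0769) and of Crot for the difference (0.0725).

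Leaving out each library in turn, which leaves fewer samples, gave 4100 to 4583 calls in AML12, 507 to 689 in iWAT and 3796 to 4038 for the difference. Members called lower were 2 to 3 in AML12 and 1 to 2 in iWAT, members called higher were 0 to 1 in AML12 and 0 in iWAT, and for the difference 1 to 2 were higher and 0 lower. Over all alternatives, PPAR alpha targets called lower in AML12 ranged from 5 to 8, other mitochondrial oxidation genes from 2 to 6 and assembly genes from 1 to 4, and receptor partners called higher from 0 to 3. In iWAT targets called lower ranged from 1 to 3 and receptor partners called higher from 0 to 5.

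Signs turned only for log2 changes that were not called in the analysis as reported. With median centring AML12 Ehhadh was -0.014, Rxra -0.013 and Pparg -0.0021, and with the upper quartile Rxra was -0.012. For the difference, median centring and the upper quartile gave -0.027 and -0.029 for Echs1 and -0.030 and -0.020 for Crebbp, and median centring -0.0069 for Lpin1. Voom gave 0.0023 for Acaa1a, 0.36 for Vnn1, 0.60 for Cpt1c and 0.20 for Acacb, and a pseudocount of 0.1 FPKM gave 0.17 for Vnn1.

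When single libraries were left out, AML12 values ran from -0.092 to 0.081 for Ehhadh and -0.061 to 0.023 for Ppard. iWAT values ran from -0.16 to 0.040 for Fgf21, -0.034 to 0.011 for Hadha, -0.0062 to 0.041 for Hadhb, -0.011 to 0.052 for Ncor1, -0.073 to 0.025 for Pdk4, -0.0010 to 0.016 for Pex6, -0.027 to 0.047 for Prkaa1, -0.081 to 0.0075 for Prkag1 and -0.0042 to 0.056 for Rxra. Differences ran from -0.052 to 0.025 for Acaa1a, -0.00028 to 0.11 for Acadvl, -0.14 to 0.012 for Cpt2, -0.021 to 0.031 for Crebbp, -0.015 to 0.032 for Echs1, -0.0068 to 0.20 for Ehhadh, -0.020 to 0.18 for Fgf21, -0.024 to 0.020 for Hadha, -0.015 to 0.071 for Lpin1 and -0.034 to 0.026 for Rxra. Among the 9 genes depth limits Ppara most, with 8 to 58 reads per library.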
